A study of Homo sapiens with 6 samples.

Results

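Leukocyte integrins are the adhesion receptors of blood cells, and 10 of their subunit genes were followed here in THP-1 cells treated with ruxolitinib. The genes were picked by symbol: the alpha chains ITGAL, ITGAM, ITGAX, ITGA4, ITGA5 and ITGAV, and the beta chains ITGB1, ITGB2, ITGB3 and ITGB7. All 10 were found among the 61517 genes of the deposited count table, and all 10 were abundant enough to test among 14051 tested genes. THP-1 is a line grown from a human monocytic leukaemia. Per the series' design text, the cells were turned into macrophages and then driven into pyroptosis, a lytic inflammatory death, with LPS and ATP. In the ruxolitinib group (RUX+), 3 libraries came from such cells that also received the JAK1 and JAK2 inhibitor, whose name the treatment field spells "Lukotinib". In the control group (RUX-), 3 libraries came from cells without the inhibitor. Both groups therefore carry the differentiation, LPS and ATP, and cells without stimulation were not analysed here. The sources used here give no dose, exposure time or differentiating agent, and the model is a single cell line.

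Every integrin is a pair of an alpha and a beta chain that spans the membrane and binds ligands outside and the cytoskeleton inside. ITGB2 is the shared beta chain of the leukocyte-restricted receptors LFA-1 (with ITGAL), Mac-1 or complement receptor 3 (with ITGAM) and p150,95 or complement receptor 4 (with ITGAX). ITGB1 pairs with many alpha chains, among them ITGA4 for VCAM1 binding and ITGA5 for fibronectin. ITGAV joins several beta chains, including ITGB3 in the vitronectin receptor. ITGB7 pairs with ITGA4 or ITGAE in gut-homing lymphocytes. On macrophages these receptors serve attachment, migration between tissues and the uptake of opsonised particles and dying cells.

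With ruxolitinib, ITGB3 fell to 0.472 of its control level, and the leukocyte alpha chains ITGAX, ITGAL and ITGAM fell to 0.596, 0.697 and 0.746. ITGA4 fell to 0.766. ITGAV rose 1.14-fold. ITGB2, ITGB1, ITGA5 and ITGB7 did not pass the threshold. So 6 of the 10 subunit genes passed, 5 lower and 1 higher, where 29.7% of all tested genes passed, 16.1% lower and 13.6% higher. The groups did not overlap for 7 of the 10, against 44.2% of all tested genes. The median log2 difference was -0.26 over the 10 genes and -0.01 over all tested genes. Calls use an adjusted p under 0.05 in edgeR's quasi-likelihood test across all tested genes, and levels are in CPM, read counts relative to the library total after TMM scaling.

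**Figure D1:**
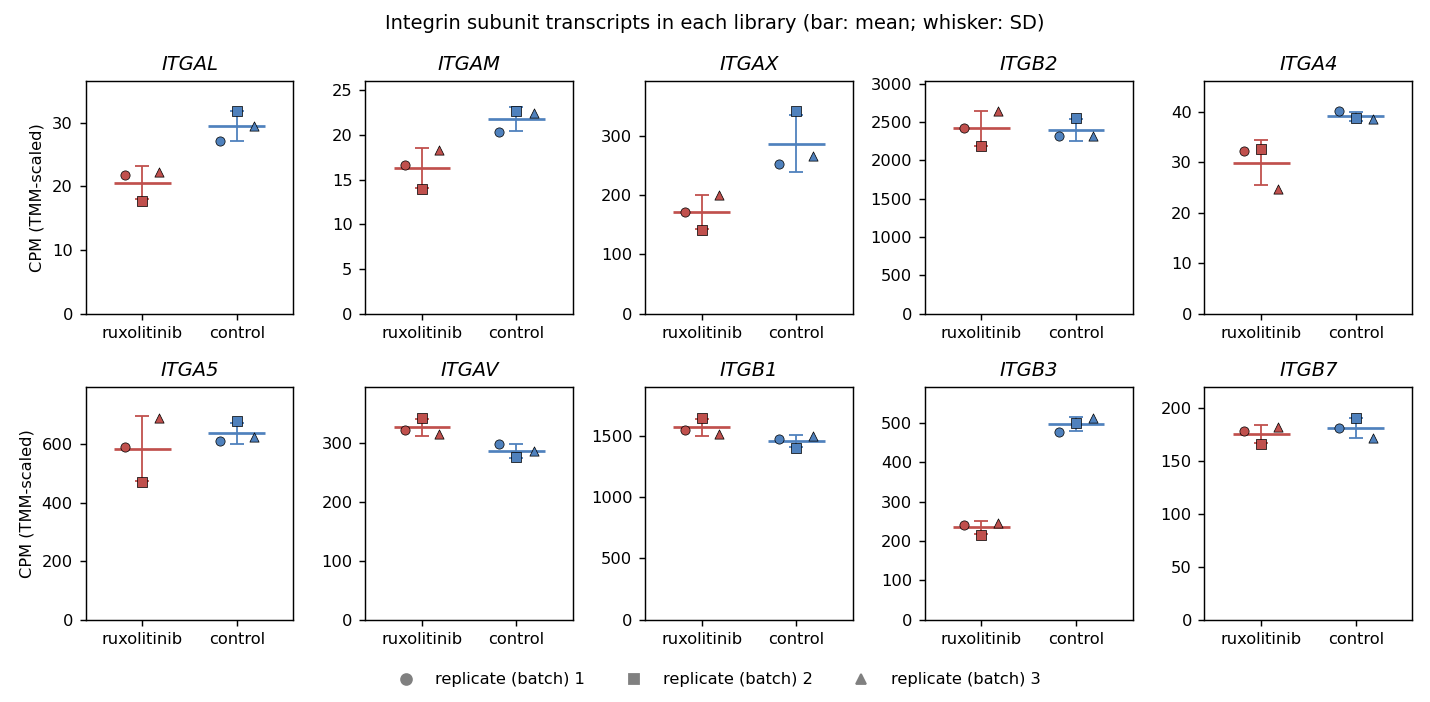
CPM of each integrin subunit transcript in the 3 ruxolitinib libraries and the 3 control libraries, with the group mean as a bar, the SD as a whisker and the replicate or batch number as the symbol. ITGB3 shows the widest separation, at 217 to 247 CPM with ruxolitinib and 478 to 514 CPM in control, while the ITGB2 libraries of both groups lie in the same range.

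The libraries held 17757595 to 24533979 counts. In them 3 counts, about the 95% upper limit for a count of 0, stood for 0.12 to 0.169 CPM (counting error only). The lowest member count was 260 reads, for ITGAM in ruxolitinib replicate 2. The macrophage label was checked with 8 markers, of which 7 were tested. CD14, CD68, CSF1R, FCGR1A, MSR1 and CD163 fell, LYZ rose, and MRC1, a mannose receptor gene, was too low to test. CD68, a lysosomal membrane protein of macrophages, had 198 ± 2.56 CPM with ruxolitinib and 424 ± 13.3 CPM in control (SD, n = 3 each, adjusted p = 2.89e-09). The summed level of the 8 was 456 to 505 CPM with ruxolitinib and 966 to 987 CPM in control. Of 6 T cell markers, CD3D, CD3E and CD3G had no reads in any library and CD2, CD5 and TRBC2 had 1 to 4 reads each over all 6 libraries. Of 5 NK cell markers, 2 were tested: NKG7, a granule protein gene, fell (log2 difference -1.93 ± 0.20, adjusted p = 2.04e-05), and GNLY did not pass. The summed level of the 5 NK cell markers was 3.52 to 4.40 CPM with ruxolitinib and 6.70 to 8.13 CPM in control. NKG7 alone had a mean of 1.49 CPM with ruxolitinib and 5.68 CPM in control, while GNLY had 1.73 and 1.28 CPM. NCR1, KLRD1 and KLRF1 were too low to test. The summed B cell, granulocyte and stromal or epithelial markers were at 1.45 to 2.47 CPM with ruxolitinib and 1.87 to 3.90 CPM in control, and none of their tested members passed. The macrophage marker sum, and the NK cell marker sum through NKG7, were thus lower beside the leukocyte alpha chains. Their part in those differences was not tested. In bulk RNA, fewer cells of a kind and less RNA per cell cannot be told apart. Separate cultures are not stated in the labels, and the p-values therefore rest on the spread among these libraries alone, which could be technical.

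The upstream sequences of a subunit that fell, ITGAM, and of the one that rose, ITGAV, are shown to compare the motifs in both. RefSeq windows on GRCh38.p14 were given for 6 of the 10 genes, as 8 windows. In each, the 250 bases before the RefSeq start site were searched on both strands. ITGAL, ITGAX, ITGB2 and ITGB3 had no window and were not searched. Capitals mark GAGGAAG, a core bound by PU.1, the myeloid ETS factor, or GGGCGG, the GC box, or the reverse complement of either. The ITGAM stretch is chr16:31259725-31259966 and the ITGAV stretch chr2:186589806-186590055, both on the plus strand and both stopping short of the first annotated exon.
ITGAM: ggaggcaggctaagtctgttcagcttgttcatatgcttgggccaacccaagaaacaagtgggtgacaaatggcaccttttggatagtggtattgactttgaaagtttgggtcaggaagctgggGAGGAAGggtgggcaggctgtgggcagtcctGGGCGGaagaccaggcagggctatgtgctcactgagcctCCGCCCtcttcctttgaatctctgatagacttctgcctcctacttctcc
ITGAV: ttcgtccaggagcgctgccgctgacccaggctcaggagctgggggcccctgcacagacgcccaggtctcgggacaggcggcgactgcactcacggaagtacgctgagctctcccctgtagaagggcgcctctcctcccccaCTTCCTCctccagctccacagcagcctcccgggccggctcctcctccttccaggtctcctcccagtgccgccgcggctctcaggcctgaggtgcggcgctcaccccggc

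GAGGAAG was present in 3 of the 8 windows (ITGAM, ITGAV and ITGB7), against 11.2% of 35116 promoter windows of the same length. The ITGB7 match, at -29 from the RefSeq start site, lies past the first 194 bases of its window, where the annotated gene begins. Only the first 66 bases of the ITGA4 window and the first 56 of the ITGA5 window lie before an annotated exon. ITGAV window 2 and both ITGB1 windows lie inside the annotated genes. GGGCGG was present in 3 of 8 (ITGAM, ITGA5 and ITGB1), against 42.6% of all windows. No member window held TTCNNNGAA, the STAT-type GAS motif (6.57% of all windows). The core of the interferon-stimulated response element (3.02%) and TGTGGT, a RUNX core (11%), were also absent. These absences say nothing of ITGB3, ITGAX, ITGAL and ITGB2, which had no window. The marked matches do not overlap each other. The core GAGGAAG was thus found upstream of a gene that fell and of the gene that rose, and a match describes letters only.

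The 3 alpha chains of the ITGB2 receptors were all lower with ruxolitinib, and their beta chain was not. ITGAX, the CD11c chain that marks dendritic cells and many macrophages (chromosome 16, 31355134 to 31382997), had 172, 141 and 199 CPM in ruxolitinib replicates 1 to 3, against 252, 341 and 266 CPM in control. All 3 ruxolitinib libraries lay below all 3 control libraries, and replicate 2 was the lowest with ruxolitinib and the highest in control. The log2 difference was -0.75 ± 0.18 (SE, n = 3 per group, adjusted p = 0.0343). This call was lost with the batch as a block (adjusted p = 0.0938), with no filter on low counts (0.104) and without 4 of the 6 libraries taken singly, which were control replicates 2 (0.0501) and 3 (0.0644) and ruxolitinib replicates 1 (0.0922) and 2 (0.0914). Leaving out batch 1 (0.0866) or batch 3 (0.0689) as a whole also lost it. The difference was negative within each batch, at -0.55, -1.27 and -0.42 in batches 1 to 3.

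ITGAL, the CD11a chain of LFA-1 that binds the ICAM ligands (chromosome 16, 30472658 to 30523185), had 21.8, 17.6 and 22.3 CPM with ruxolitinib and 27.1, 31.8 and 29.5 CPM in control. The groups did not overlap. Its log2 difference was -0.52 ± 0.10 (SE, n = 3 per group, adjusted p = 0.0016), and it kept its call under every alternative run. ITGAM, the CD11b chain of the iC3b receptor (chromosome 16, 31259967 to 31332892), had 16.6, 13.9 and 18.3 CPM with ruxolitinib and 20.3, 22.6 and 22.5 CPM in control. Again all ruxolitinib values lay below all control values, with a log2 difference of -0.42 ± 0.10 (SE, adjusted p = 0.00744), and the call also held under every alternative. ITGAM and ITGAX are neighbours on the plus strand of chromosome 16.

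ITGB2, the CD18 chain (chromosome 21, 44885953 to 44931989), had 2421, 2193 and 2640.1 CPM with ruxolitinib and 2317, 2557 and 2312.5 CPM in control. The groups overlapped. Its log2 difference was 0.01 ± 0.07 (SE, adjusted p = 0.908), with a 95% interval of -0.14 to 0.17, so that a difference the size of that of ITGAL lay outside the interval. Without both libraries of batch 2 the value was 0.13 and passed (adjusted p = 0.0237). The antisense gene ITGB2-AS1 shares 4.46% of the ITGB2 exonic bases and had 3601 counts in all libraries, against 294712 for ITGB2. The sources used here do not state whether counting used strand, so reads of the shared bases cannot be told apart.

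**Figure D2:**
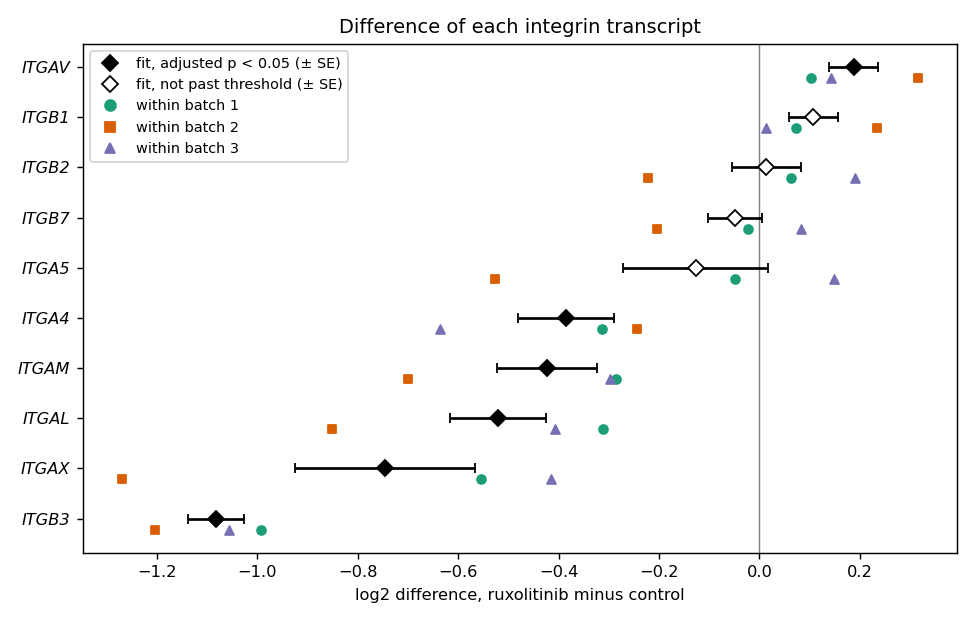
Log2 difference, ruxolitinib minus control, of each integrin transcript from the fit over all 6 libraries (diamond, with SE; filled where the adjusted p is under 0.05) and within each batch (coloured symbols). ITGB3, ITGAX, ITGAL, ITGAM and ITGA4 lie below 0 in all 3 batches, and ITGAV and ITGB1 above 0 in all 3.

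ITGB3, the beta chain of the vitronectin receptor and of the platelet fibrinogen receptor (chromosome 17, 47253846 to 47311816), had the largest difference of the 10. It had 240.3, 217 and 247 CPM in ruxolitinib replicates 1 to 3 and 478, 499 and 514 CPM in control. The groups did not overlap, and within each group the 3 libraries lay close together. The log2 difference was -1.08 ± 0.06 (SE, n = 3 per group, adjusted p = 3.49e-08), and within the batches it was -0.99, -1.20 and -1.06. Across all alternatives it ranged from -1.13 to -1.03 and always passed. A same-strand gene, AC068234.1, shares 51.6% of its exonic bases and was given 8 counts, against 46060 for ITGB3. How reads in both were assigned is not stated in the sources used here.

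The partner chains of ITGB3 had other values. ITGAV, the alpha chain for vitronectin, osteopontin and latent TGF-beta (chromosome 2, 186590065 to 186680901), had 321, 343 and 316 CPM with ruxolitinib and 299, 275 and 286 CPM in control. The groups did not overlap, and the log2 difference was 0.19 ± 0.05 (SE, adjusted p = 0.0127). It no longer passed with the batch as a block (adjusted p = 0.0683) or when batch 1 was left out (0.0921). ITGA2B, the platelet partner of ITGB3, had 1 count in the 3 ruxolitinib libraries and 7 in the 3 control libraries and was too low to test. Of the 5 platelet markers, PF4 was at 0 in all libraries, and PPBP, a chemokine gene, was the only one tested and fell (log2 difference -1.74 ± 0.09, adjusted p = 5.39e-08). The summed level of the 5 was 5.90 to 6.87 CPM with ruxolitinib and 20.7 to 22.3 CPM in control. Nearly all of this sum was PPBP, at 6.29 ± 0.382 CPM with ruxolitinib and 21.1 ± 0.838 CPM in control (SD, n = 3 each). The part of the sum in the ITGB3 difference was not tested.

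ITGB1 did not pass, and among its partners ITGA4 fell, ITGAV rose and ITGA5 did not pass. ITGB1, the CD29 chain (chromosome 10, 32900319 to 33005792), had 1546, 1647 and 1510.4 CPM with ruxolitinib and 1470, 1400.5 and 1496 CPM in control. No ruxolitinib library lay below a control library, but the log2 difference of 0.11 ± 0.05 did not pass (SE, adjusted p = 0.122, 95% interval 0.0010 to 0.21). It passed with upper-quartile scaling (adjusted p = 0.0467) and with a correction for GC content (0.0422). ITGA5, the fibronectin receptor chain (chromosome 12, 54395261 to 54419460), had 592, 472 and 692 CPM with ruxolitinib and 613, 679.9 and 625 CPM in control. Its ruxolitinib libraries lay on both sides of the control range, with a log2 difference of -0.13 ± 0.14 (SE, adjusted p = 0.574, 95% interval -0.49 to 0.24).

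ITGA4, the CD49d chain of the VCAM1 receptor VLA-4 (chromosome 2, 181457202 to 181536187), had 32.3, 32.7 and 24.8 CPM with ruxolitinib and 40.1, 38.8 and 38.5 CPM in control. The groups did not overlap, and ruxolitinib replicate 3 was the lowest. The log2 difference was -0.38 ± 0.10 (SE, n = 3 per group, adjusted p = 0.0114), and the call was lost when batch 1 was left out (0.0598). ITGB7 (chromosome 12, 53191318 to 53207307), the other beta chain for ITGA4, had 178, 166 and 182 CPM with ruxolitinib and 181, 191 and 172 CPM in control. Its groups overlapped, with a log2 difference of -0.05 ± 0.05 (SE, adjusted p = 0.543, 95% interval -0.17 to 0.07). The opposite-strand gene ZNF740 shares 42.1% of the ITGB7 exonic bases and had 6434 counts, against 21864 for ITGB7, so the ITGB7 level carries the same strand caution.

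Per exonic kilobase, ITGB2 and ITGB1 were the most abundant subunits and ITGAM the least abundant in both groups. ITGB2 stood at 356 ± 32.9 CPM per kb with ruxolitinib and 352 ± 20.5 in control (SD, n = 3 each), and ITGB1 at 261 ± 11.8 and 242 ± 8.21. In control, ITGB3 came next at 113 ± 4.10, ahead of ITGA5 at 84.3 ± 4.74 CPM per kb. With ruxolitinib that order was turned, with ITGA5 at 77.3 ± 14.5 and ITGB3 at 53.4 ± 3.66. In the control libraries, ITGB7 (40.5 ± 2.13) and ITGAX (40.5 ± 6.74) did not differ beyond their spread, and ITGAV was at 34.9 ± 1.41. With ruxolitinib, ITGAV (39.7 ± 1.75) and ITGB7 (39.2 ± 1.91) lay within their spread, and ITGAX was at 24.1 ± 4.08. ITGA4, ITGAL and ITGAM formed the low end, at 3.79 ± 0.564, 3.18 ± 0.397 and 2.87 ± 0.388 CPM per kb with ruxolitinib and 4.95 ± 0.107, 4.56 ± 0.363 and 3.83 ± 0.233 in control. With the longest transcript as the length, ITGA5 came ahead of ITGB3 in control too, at 128 ± 7.19 against 124 ± 4.51 CPM per kb. With that length ITGB7 (61.2 ± 2.99) stood above ITGAV (46.4 ± 2.05) beyond their spread with ruxolitinib, and ahead of ITGB3 (58.7 ± 4.02).

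**Figure D3:**
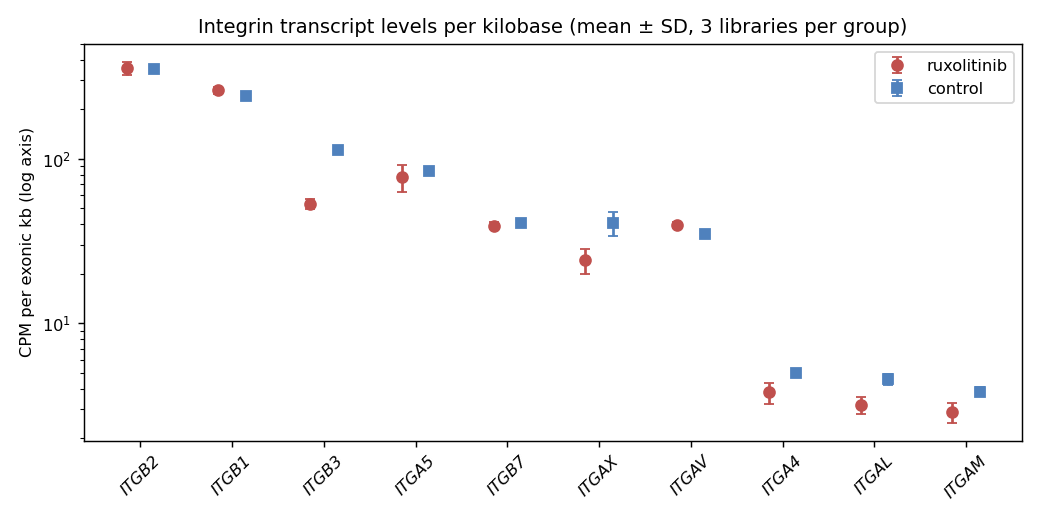
CPM per exonic kilobase of the 10 subunit transcripts on a log axis, as mean and SD over 3 ruxolitinib and 3 control libraries, in the order of the control level. ITGB3 stands at 53.4 with ruxolitinib and 113 in control, and ITGA4, ITGAL and ITGAM lie below 5 CPM per kb in both groups.

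The chains of a receptor were also compared within each library, where the scaling between libraries plays no part. ITGAX counts were 7.10%, 6.44% and 7.54% of ITGB2 counts in ruxolitinib replicates 1 to 3, against 10.9%, 13.3% and 11.5% in control. ITGAL counts were 0.804% to 0.902% of ITGB2 counts with ruxolitinib and 1.17% to 1.28% in control, and ITGAM counts 0.635% to 0.694% with ruxolitinib and 0.875% to 0.973% in control. No overlap between groups was seen for any of the 3. The mean log2 ratio differed by -0.76 for ITGAX, -0.53 for ITGAL and -0.44 for ITGAM, with p = 0.1 in each two-sided exact permutation test and 0.117 after adjustment over the 7 pairs compared. A design of 3 against 3 can give no smaller p than 0.1. All 3 ratios were lower with ruxolitinib in every batch. Per exonic kilobase, the 3 alpha chains together came to 8.45% ± 0.594 of ITGB2 with ruxolitinib and 13.8% ± 1.24 in control (SD, n = 3 each).

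Among these 3 alpha chains, ITGAX made up 79.9% ± 0.834 of the summed level per kilobase with ruxolitinib and 82.7% ± 1.53 in control, and ITGAM 9.52% ± 0.248 and 7.93% ± 0.845 (SD, n = 3 each). The ITGAM to ITGAX log2 ratio was higher by 0.32 with ruxolitinib, with no overlap (exact two-sided permutation p = 0.1, adjusted 0.117). ITGA4 counts were 1.64% to 2.09% of ITGB1 counts with ruxolitinib and 2.58% to 2.77% in control, a log2 difference of -0.50 without overlap (exact permutation p = 0.1, adjusted 0.117). ITGAV counts were 20.8% to 20.9% of ITGB1 counts with ruxolitinib and 19.1% to 20.3% in control, a log2 difference of 0.08 with the same p-values. For ITGA5 to ITGB1 the groups overlapped (log2 difference -0.25, exact permutation p = 0.4, adjusted 0.4). That difference was -0.07 without ruxolitinib replicate 2 and -0.40 without ruxolitinib replicate 3. A ratio of this kind shows unequal difference of the 2 chains and nothing about either alone.

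The 2 libraries of batch 2 differed from the others by subunit. For 6 members (ITGAL, ITGAM, ITGAX, ITGB2, ITGA5 and ITGB7), replicate 2 was the lowest library with ruxolitinib and the highest in control. For 2 members, ITGAV and ITGB1, it was the reverse. The longest transcripts of the first 6 have a GC content of 54.2% to 60.0%, and those of ITGAV and ITGB1 of 38.2% and 39.98%. Over 13875 genes with a GC value, the within-batch log2 difference had a Pearson correlation with GC content of -0.18 in batch 2, against 0.15 in batch 1 and 0.20 in batch 3, and all genes of a batch share its 2 libraries. With each library's GC trend removed, a correction chosen after seeing the data, ITGAX was at -0.73 ± 0.13 (SE, adjusted p = 0.0071), ITGAL at -0.50 ± 0.08 (9.6e-05), ITGB2 at -0.03 ± 0.05 (0.731) and ITGAV at 0.21 ± 0.04 (0.00134). With the correction and the batch as a block together, ITGAX (adjusted p = 0.0132) and ITGAV (0.017) passed.

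**Figure D4:**
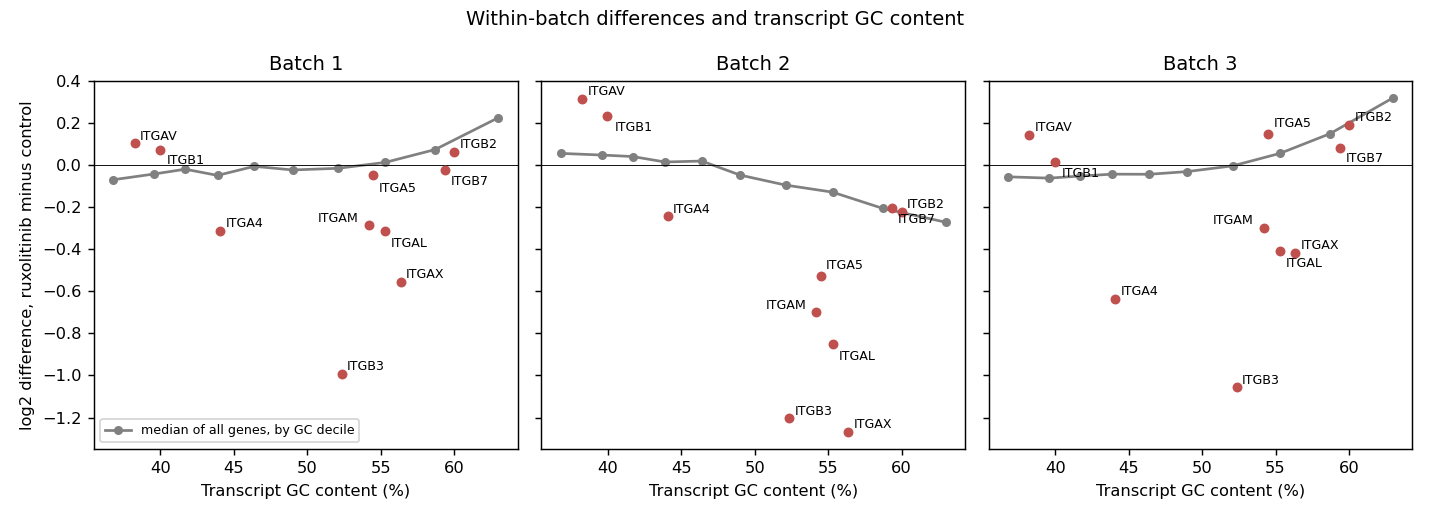
Within-batch log2 difference, ruxolitinib minus control, against transcript GC content for batches 1 to 3, with the 10 integrin transcripts as labelled points and the median of all genes in each decile of GC content as a grey line. In batch 2 the grey line runs to -0.27 at the highest GC content, against 0.23 and 0.32 in batches 1 and 3, and ITGAX lies lowest in batch 2.

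Of 16 other integrin subunits listed, 11 were tested, 2 rose (ITGA1 and ITGA6), 3 fell and 6 did not pass, where 13.6% of all tested genes were higher and 16.1% lower. ITGA6, a laminin receptor chain, no longer passed with the batch as a block, nor when control replicate 1, ruxolitinib replicate 1 or batch 1 was left out. ITGA2B, ITGA8, ITGAD, ITGB4 and ITGB6 were too low to test. ITGA1, the collagen receptor chain that pairs with ITGB1, had 198, 197 and 196 CPM with ruxolitinib and 126, 120.2 and 126 CPM in control. The groups did not overlap, and the log2 difference was 0.66 ± 0.04 (SE, adjusted p = 3.59e-07). ITGB5, a partner of ITGAV, fell by 0.40 ± 0.06 on the log2 scale (adjusted p = 3.27e-04), and ITGB8, another partner of ITGAV that binds latent TGF-beta, fell by 0.21 ± 0.05 (adjusted p = 0.0064). The ITGB8 call was lost without control replicate 1 (adjusted p = 0.057) or 3 (0.0693) and when batch 1 (0.157) or batch 3 (0.0727) was left out. ITGA3, a laminin receptor chain, fell to 2.11 ± 0.328 CPM with ruxolitinib, against 4.33 ± 1.02 CPM in control (SD, n = 3 each, log2 difference -1.04 ± 0.21, adjusted p = 0.00278).

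Ligand genes had a median log2 difference of 0.27 over 13 tested of 20, with 3 higher (THBS1, ICAM1 and VCAM1), 2 lower and 8 not past, beside 13.6% higher and 16.1% lower among all tested genes. With the batch as a block 2 were higher and 1 lower, and VCAM1, the ligand of VLA-4 with 57 counts in ruxolitinib and 29 in control libraries, no longer passed. When batch 1 was left out, 1 was higher and 1 lower. THBS1, the matrix protein thrombospondin-1 that binds integrins and CD47, rose to 101 ± 3.15 CPM with ruxolitinib, against 47.5 ± 1.47 CPM in control (SD, n = 3 each, log2 difference 1.09 ± 0.05, adjusted p = 1.45e-08). ICAM1, the ligand of LFA-1 and Mac-1, rose by 0.35 ± 0.06 on the log2 scale (adjusted p = 0.00178, but 0.0524 when batch 1 was left out). C3, whose fragment iC3b is bound by Mac-1 and complement receptor 4, fell to 200.5 ± 23.4 CPM with ruxolitinib, against 342 ± 8.78 CPM in control (log2 difference -0.77 ± 0.08, adjusted p = 5.46e-05). SPP1, osteopontin, a ligand of ITGAV receptors, had a log2 difference of -0.21 ± 0.05 (adjusted p = 0.0119), which was lost with the batch as a block (0.0641), without 3 of the libraries taken singly, which were control replicates 1 (0.0863) and 3 (0.0753) and ruxolitinib replicate 1 (0.0857), and when batch 1 (0.268) or batch 3 (0.121) was left out.

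Proteins that activate integrins from inside or bind their tails had a median of -0.04. Of 20 tested, 3 were higher (RAP1B, FERMT1 and FERMT2), 4 lower and 13 not past, beside 13.6% higher and 16.1% lower among all tested genes. With the batch as a block, 3 were higher and 3 lower. FYB1, the adaptor ADAP, fell to 1.44 ± 0.279 CPM with ruxolitinib, against 4.54 ± 0.365 CPM in control (SD, n = 3 each, log2 difference -1.65 ± 0.19, adjusted p = 4.93e-05). FLNA, filamin A, which competes with talin for the beta tail, was low, at 2.93 ± 0.572 CPM with ruxolitinib and 7.09 ± 1.09 CPM in control (SD). It fell by 1.26 ± 0.18 on the log2 scale (adjusted p = 1.9e-04). RASSF5, a Rap1 effector for LFA-1, fell by 0.27 ± 0.04 (adjusted p = 5.81e-04), while RAP1B, a Rap1 GTPase, rose by 0.27 ± 0.05 on the log2 scale (adjusted p = 0.00247, but 0.0524 when batch 1 was left out). The talin gene TLN1 had 397 ± 39.2 CPM with ruxolitinib and 376 ± 48.5 CPM in control and the kindlin-3 gene FERMT3 126 ± 4.46 and 128 ± 26.9 CPM. Neither TLN1 nor FERMT3 passed (adjusted p = 0.663 and 0.922), and these 2 genes were named for their role after their values were seen. The other kindlin genes, FERMT1 and FERMT2, rose by 0.65 ± 0.16 and 0.29 ± 0.07 on the log2 scale (SE, adjusted p = 0.0109 and 0.0107).

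Among 25 outside-in signalling and adhesion site genes, all tested, 12 passed as lower, 1 as higher (PTK2, focal adhesion kinase) and 12 did not pass, with a median of -0.14. Among all tested genes 16.1% were lower and 13.6% were higher. Under the batch block 8 were lower and 0 higher, so that PTK2 no longer passed, and the same counts were found without control replicate 1 and when batch 1 was left out. Without ruxolitinib replicate 3, and when batch 3 was left out, 8 were lower and 1 higher. Their summed level was 3779 to 3824 CPM with ruxolitinib and 4391 to 4474 CPM in control. VAV3, a guanine nucleotide exchange factor, fell to 237 ± 3.78 CPM with ruxolitinib, against 349.97 ± 10.9 CPM in control (log2 difference -0.56 ± 0.04, adjusted p = 1.58e-06). The kinase genes SYK and LYN fell by 0.46 ± 0.05 and 0.36 ± 0.05 on the log2 scale (adjusted p = 3.88e-05 and 1.94e-04), and PARVG, a parvin of blood cells that links integrins to actin, fell by 0.80 ± 0.10 (adjusted p = 1.15e-04).

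**Figure D5:**
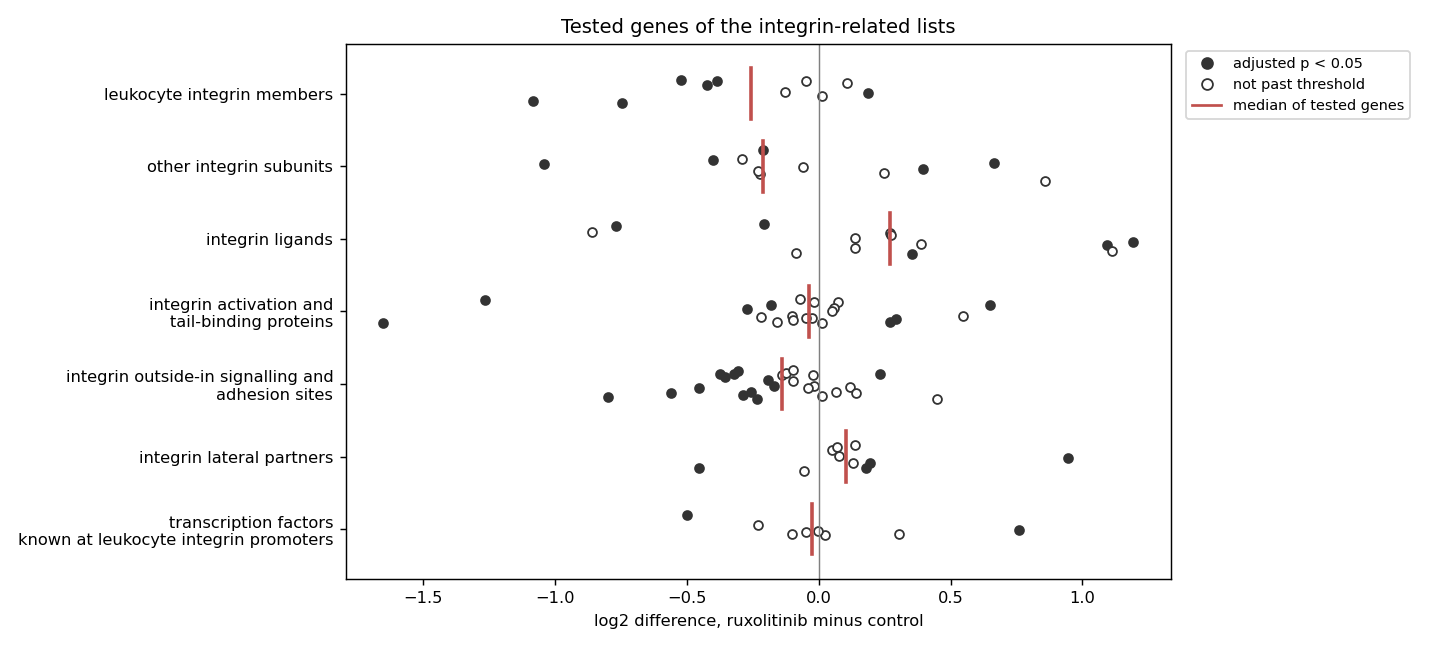
Log2 difference, ruxolitinib minus control, of every tested gene of the 10 leukocyte integrin genes and 6 related lists, filled where the adjusted p is under 0.05, with the list median as a red line. Outside-in signalling genes have 12 filled points below 0 and 1 above, and the ligand list has its median at 0.27.

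Of 10 lateral partners in the membrane, 3 rose, 1 fell and 6 did not pass (median 0.10). Among all tested genes 13.6% were higher and 16.1% lower. With the batch as a block, 1 lateral partner was higher and 1 lower. CAV1, caveolin-1, rose by 0.95 ± 0.09 on the log2 scale (adjusted p = 6.66e-06), and CD47, the integrin-associated protein and "do not eat me" signal, fell by 0.46 ± 0.05 (adjusted p = 6.52e-05). The tetraspanin gene CD82 had a log2 difference of 0.18 ± 0.05 (adjusted p = 0.0121), lost with the block (0.0759), without control replicate 1 (0.0654), without ruxolitinib replicate 1 (0.0823), when batch 1 (0.294) or batch 3 (0.0953) was left out, and with block and GC correction together (0.0797). The basigin gene BSG had 0.20 ± 0.06 (adjusted p = 0.0319), and its call was lost in 10 of 19 alternatives, with adjusted p-values of 0.0563 to 0.302. Of 8 transcription factors known at leukocyte integrin promoters, 1 rose, 1 fell and 6 did not pass (median -0.03). This lies near the shares of all tested genes, 13.6% higher and 16.1% lower. SPI1, which encodes PU.1, fell by 0.50 ± 0.11 (adjusted p = 0.0117, but 0.0893 without ruxolitinib replicate 2 and 0.0575 when batch 3 was left out). IRF8, a macrophage and dendritic cell factor, rose by 0.76 ± 0.09 (adjusted p = 3.47e-05). RUNX3 and SP1 had -0.23 ± 0.09 and -0.10 ± 0.05 (adjusted p = 0.0778 and 0.181), and RUNX3 passed under 7 of 19 alternatives, median-ratio scaling among them (0.0416).

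The genes whose log2 CPM ran most like that of ITGB3 over the 6 libraries were ANKFY1, PHF21A, SLC7A7, TNFSF10 and CCL24, with Pearson correlations of 0.9993, 0.9991, 0.999, 0.999 and 0.9989. Their log2 differences were -1.30, -0.34, -0.76, -2.19 and -0.78. In all, 181 genes had a correlation above 0.99, all over the same 2 groups of 3 libraries.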

How the data were processed

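Poly-A-selected RNA libraries from THP-1 cells were sequenced, and the table the authors deposited holds raw read counts per gene. The build was hg38, per the submitters' processing notes. Aligner, counting program, annotation and strandedness were not given in the sources used here. Lengths, coordinates, overlaps and GC content came from GENCODE 29 on GRCh38, and promoter windows from RefSeq. The fit used edgeR 4.0.16 in R 4.3.3 (glmQLFit and glmQLFTest, robust), TMM factors and filterByExpr (minimum count 10, minimum total 15), with Benjamini-Hochberg adjustment over all 14051 tested genes. SEs came from the coefficient and its F statistic. Subunit ratios used exact permutation tests in scipy 1.17.1. A batch number in the labels is shared by 1 ruxolitinib and 1 control library, and the pairing rests on it. Within batches 1 to 3, the deviations from the group mean correlated at -0.03, -0.27 and -0.15. Libraries of a group differed by more than counting noise (chi-square per gene 3.38 to 21.1). Alternatives were other scalings and filters, DESeq2 1.42.0, limma-voom (limma 3.58.1), the block, left-out libraries and batches, and GC correction. Members and lists were chosen with earlier results of these data known. Besides the 10 members, up to 4 genes per list with the smallest adjusted p were named, and the 5 genes most like the member with the smallest adjusted p. Further list genes, among them ITGA6, VCAM1, PTK2, TLN1, FERMT1, FERMT2 and FERMT3, were named outside that rule with their values known.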

Additional observations from a re-analysis of the deposited data

How the results depend on the processing

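Among the 10 integrin genes, ITGB3, ITGAL and ITGAM kept their direction and call under all 19 alternatives, and ITGAX, ITGA4 and ITGAV kept their direction under all 19. The counts of members past the threshold were 5 lower and 1 higher. With the replicate block, which pairs libraries by batch, they were 4 lower and 0 higher, since ITGAX (adjusted p = 0.0938) and ITGAV (0.0683) no longer passed, and the block changed no other member's call. With the GC correction, with upper-quartile scaling, or when batch 2 was left out, 2 were higher. Without both libraries of batch 1, 3 were lower and 0 higher. With any single library left out, 4 to 5 were lower and 1 was higher. Over all genes, 1908 were higher and 2267 lower, 1288 and 1627 with the block, and 840 and 1143 without both libraries of batch 1. The ITGA5 to ITGB1 log2 ratio difference of -0.25 became 0.0065 without both libraries of batch 2 and stayed at -0.25 with the block; the other 6 ratios kept their sign throughout. Where a call was lost the cause was not tested, and the fits that leave libraries out also hold fewer of them. No scaling moved the median of all genes by more than 0.1. Every level per kilobase moved by more than its SD with the longest transcript as length, which is shorter for all 10 genes. The GC correction was chosen after seeing the data. ITGA2B could not be tested at this depth.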
